A study of Mus musculus with 446 samples.

Results

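Fatty acids enter a cell by way of membrane proteins and travel in the cytosol bound to small carriers. The 10 genes described here code for such proteins in the mouse. They are the membrane fatty acid receptor Cd36, the binding proteins Fabp1, Fabp2, Fabp3, Fabp4 and Fabp5, and the membrane transporters Slc27a1, Slc27a2, Slc27a4 and Slc27a5. They were taken by symbol from lists of 47643 genes in liver and in muscle, where all 10 were found, and from 2728 genes in adipose tissue, where of the 10 the table used here held Cd36. All 10 are protein-coding genes and lie on chromosomes 2, 3, 4, 5, 6, 7 and 8.

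The RNA came from male mice of the Diversity Outbred stock, which descends from several founder strains and in which each animal has its own genome. Liver, skeletal muscle (which muscle is not given) and abdominal fat were sampled. The mice came in at 6 weeks of age, were housed singly and ate the control diet until the study began. The high-fat group (75 mice) then ate a diet with 60% of its energy as fat for 14 weeks, and the control group (74 mice in the labels used here) stayed on a diet with 10% of its energy as fat. Each mouse carries its own mixture of founder alleles, so each group is a population and not a line. The 446 libraries were 75 high-fat and 74 control livers, 75 high-fat and 74 control muscles, and 75 high-fat and 73 control adipose samples.

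CD36 binds long-chain fatty acids at the cell surface and moves between internal stores and the membrane in muscle. Fatty acid-binding proteins (FABPs) are named for the tissue in which each was first found: Fabp1 for liver, Fabp2 for intestine, Fabp3 for heart and skeletal muscle, Fabp4 for adipocytes and Fabp5 for epidermis, and Fabp5 is also made by macrophages. The SLC27 proteins, also called fatty acid transport proteins, couple uptake to the attachment of coenzyme A. Slc27a1 is the form of muscle and fat, Slc27a2 and Slc27a5 are the liver forms, and Slc27a5 also attaches coenzyme A to bile acids. Several of these genes are known targets of the peroxisome proliferator-activated receptors (PPARs), nuclear receptors that bind fatty acids.

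Levels are given as scaled TPM, an abundance per transcript length that sums to 1000000 in a whole library and was then adjusted for library composition, so that genes and libraries of a tissue can be set side by side. The scaling was large in some libraries: 12 high-fat and 14 control livers, 9 high-fat and 2 control muscles, and 7 high-fat and 11 control adipose samples had scale factors below 1/3 of the median in their tissue. Ribosomal RNA-like genes took up to 98.97% of the TPM of a liver library. Read depth cannot be recovered from TPM and is unknown here. The labelled tissues showed their own markers. Summed hepatocyte markers had a median of 51040 scaled TPM in high-fat livers and 56040 in control livers, and summed skeletal muscle markers 110900 in high-fat muscles and 124600 in control muscles. The exception was high-fat mouse 80, whose library labelled liver held 89380 scaled TPM of muscle markers and 266.5 of hepatocyte markers, while its library labelled muscle held 84340 of hepatocyte markers and 520.7 of muscle markers. The members followed the same pattern: Fabp1 was at 13.1 scaled TPM in the library labelled liver and at 6865 in the one labelled muscle. Both libraries were left out, which leaves 74 high-fat and 74 control mice in liver and muscle. A further 5 high-fat and 3 control mice had liver and muscle libraries whose deviations did not match best by mouse number. The match used 150 genes chosen for their agreement between same-numbered libraries. The 5 high-fat and 3 control mice were kept. Among the livers kept, summed muscle markers still reached 5977 scaled TPM in high-fat and 3241 in control mice, against medians of 1.65 and 1.74. In bulk tissue, fewer cells of a type and less RNA per cell cannot be told apart.

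The starts of 3 genes are shown because, among the 7 genes with a sequence window, these 3 held the hexamer searched for. The sequences are from RefSeq (build GRCm38.p6) and run from 250 bases before the transcription start to 50 bases after it. Capitals mark the hexamer that nuclear receptors such as the PPARs bind, AGGTCA, or its reverse complement TGACCT.
Cd36 (chr5:17835847-17836146, - strand): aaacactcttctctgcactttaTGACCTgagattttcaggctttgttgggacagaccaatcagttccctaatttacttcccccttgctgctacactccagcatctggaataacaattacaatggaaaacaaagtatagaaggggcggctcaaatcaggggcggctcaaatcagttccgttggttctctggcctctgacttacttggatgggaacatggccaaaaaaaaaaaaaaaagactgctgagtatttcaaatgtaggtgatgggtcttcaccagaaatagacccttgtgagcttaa
Slc27a2 (chr2:126552774-126553073, + strand): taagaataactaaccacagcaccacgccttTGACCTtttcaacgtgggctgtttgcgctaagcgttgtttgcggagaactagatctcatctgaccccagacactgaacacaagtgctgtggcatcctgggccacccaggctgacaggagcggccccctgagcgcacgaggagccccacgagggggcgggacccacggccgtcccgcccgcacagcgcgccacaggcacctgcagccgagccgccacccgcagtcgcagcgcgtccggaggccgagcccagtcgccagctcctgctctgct
Fabp1 (chr6:71199629-71199928, + strand): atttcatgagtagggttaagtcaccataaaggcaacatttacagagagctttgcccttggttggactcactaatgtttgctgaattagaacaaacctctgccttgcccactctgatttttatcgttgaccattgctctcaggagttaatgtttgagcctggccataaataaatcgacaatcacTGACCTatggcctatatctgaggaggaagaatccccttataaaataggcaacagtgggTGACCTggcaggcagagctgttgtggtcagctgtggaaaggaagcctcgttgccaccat
RefSeq windows were at hand for 7 of the 10 genes, with 9 windows in all because Slc27a1 has 3. The search covered both strands and took exact matches only. The hexamer first stood at position -228 from the start in Cd36 and at -220 in Slc27a2, and in Fabp1 at -67 and -9, each time on the opposite strand. Fabp1 also held a TATA box (TATAAA) at -30. The windows of Fabp2, Fabp3, Slc27a1 and Slc27a4 did not hold the hexamer. An exact direct repeat of the hexamer with 1 base between (DR1), which contains it and so overlaps with it, was in none of the 9 windows. In Fabp1 the hexamer at -67 is followed, after 1 base, by tggcct, which differs from TGACCT at 1 base. Repeats with a mismatch were not searched for. Of all 32851 mouse promoter windows of that length, 16.26% held the hexamer, 13.62% the TATA box, 37.41% the CCAAT box (CCAAT) and 0.04% the DR1 repeat. The CCAAT box was found in Cd36, in Fabp2 and in 2 of the Slc27a1 windows. These matches describe letters, not binding.

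On the control diet, the liver and muscle sets of uptake and binding genes differed in every member. With 1 scaling over both tissues, Fabp1 had a median of 6470 scaled TPM in liver (lowest 2954, highest 14230) and 0.418 in muscle (0 to 199.5). Slc27a2 followed with a median of 549 in liver (273.8 to 1083) and 0.23 in muscle (0 to 20.8), and Slc27a5 with 410.5 in liver (119.2 to 627.7) and 0.189 in muscle (0 to 12.2). Each of these 3 genes was higher in the liver than in the muscle of all 74 mice. The share of all tested genes with such an order in every mouse was not counted. Fabp2, the intestinal form, had a median of 92.5 in liver and 0 in muscle, again higher in liver in 74 of 74 mice. The reverse order held for Fabp3, with a median of 0 scaled TPM in liver (0 to 15.3) and 385.8 in muscle (18.6 to 1479). Fabp4 had medians of 5.07 in liver and 291 in muscle, Cd36 17.3 and 225.5, and Slc27a1 1.28 and 27.9, and all 3 were lower in liver in 74 of 74 mice. The smallest differences were those of Slc27a4, with 8.25 in liver and 3.07 in muscle (higher in liver in 73 of 74 mice), and of Fabp5, with 47.1 in liver and 9.26 in muscle (66 of 74 mice).

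All 10 genes passed the limma test of the tissue difference, liver minus muscle, where 88.5% of 13670 tested genes passed, 43.6% higher and 44.9% lower in liver. The log2 differences were 11.25 ± 0.21 (SE, n = 74 each) for Fabp1, 8.42 ± 0.11 for Slc27a2, 8.16 ± 0.09 for Slc27a5, 6.39 ± 0.07 for Fabp2, 2.08 ± 0.19 for Fabp5 and 1.16 ± 0.04 for Slc27a4. They were -3.67 ± 0.07 for Slc27a1, -3.68 ± 0.11 for Cd36, -6.06 ± 0.17 for Fabp4 and -7.70 ± 0.19 for Fabp3. The largest adjusted p among the 10, by limma with Benjamini-Hochberg adjustment, was 4.17e-20, for Fabp5. On TPM as deposited all 10 still passed, but 23.4% of the calls over all genes were higher in liver, against 49.3% with scaling, and the median over all genes was -0.70. In that setting Fabp5 was at 1.13 (adjusted p = 4.41e-05) and Slc27a4 at 0.38 (adjusted p = 0.00268). Differences on the log2(scaled TPM + 1) scale understate those of genes near 0.

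Shares were taken of the summed TPM of the 5 FABP genes and of the 4 SLC27 genes described here, without other genes of the 2 families such as Slc27a3. Within each tissue, 1 or 2 members made up most of such a sum. In liver, Fabp1 was a median of 98.2% of the FABP sum in high-fat mice and 97.6% in controls. Slc27a2 was 62.7% of the SLC27 sum in high-fat livers and 57.2% in control livers, and Slc27a5 36.2% in high-fat and 41.7% in control livers. In muscle, Fabp3 was 57.95% of the FABP sum in high-fat mice and 48.5% in controls, and Fabp4 39.5% in high-fat mice and 48.7% in controls. Slc27a1 was 89.2% of the SLC27 sum in high-fat muscles and 87.9% in control muscles. The share of Fabp3 in muscle ran from 5.77% to 87.4% in high-fat mice and from 2.76% to 87.4% in controls. These shares leave out Fabp3-ps1, a near-identical copy of Fabp3 that was high in 17 high-fat and 16 control muscles. With the copy added to Fabp3, a choice made after seeing the data, its share was 68.2% in high-fat muscles (7.18% to 92.8%) and 57.2% in control muscles (4.47% to 87.4%), and that of Fabp4 29.9% in high-fat and 39.5% in control muscles.

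**Figure D1:**
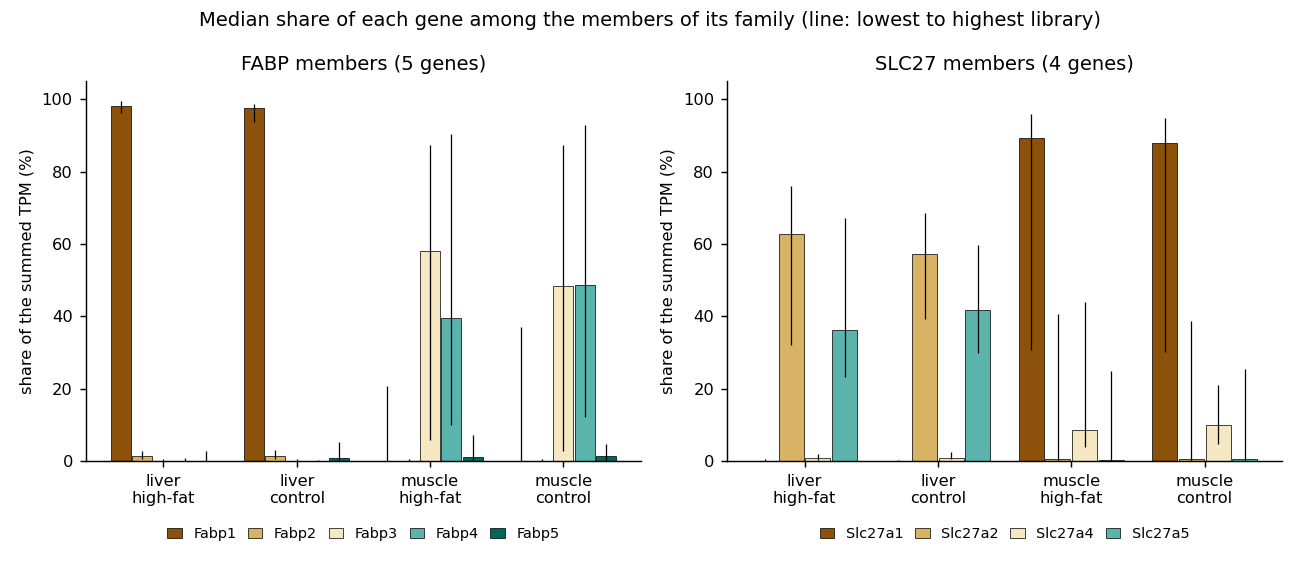
Share of each gene in the summed TPM of the 5 FABP genes on the left and of the 4 SLC27 genes on the right (percent, y axis) by tissue and diet, with Fabp3-ps1 left out. Bars are medians over 74 mice and lines run from the lowest to the highest library. Fabp1 stands at 98.2% in high-fat and 97.6% in control liver, and Slc27a1 at 89.2% in high-fat and 87.9% in control muscle.

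The order of levels was nearly the same on both diets. In high-fat livers the medians fell in the order Fabp1, Slc27a2, Slc27a5, Fabp2, Cd36, Fabp5, Slc27a4, Fabp4, Slc27a1 and Fabp3. Control livers had the same order except that Fabp5 stood above Cd36. In muscle the order was Fabp3, Fabp4, Cd36, Slc27a1, Fabp5, Slc27a4, Fabp1, Slc27a2, Slc27a5 and Fabp2 on both diets. Of the 36 neighbouring pairs compared within mice by a two-sided sign-flip permutation test, 33 differed. The exceptions were Fabp5 and Slc27a4 in high-fat liver (adjusted p = 0.859) and Fabp3 and Fabp4 in muscle (adjusted p = 0.378 in high-fat mice and 0.0529 in controls). In control muscles the mean log2 difference of Fabp3 minus Fabp4 was -0.48, against the order of medians, with Fabp3 higher in 37 of 74 mice. The pairs were set by medians of the same libraries, so these tests describe the order and are no independent support for it. Fabp3 was ranked here without its copy.

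**Figure D2:**
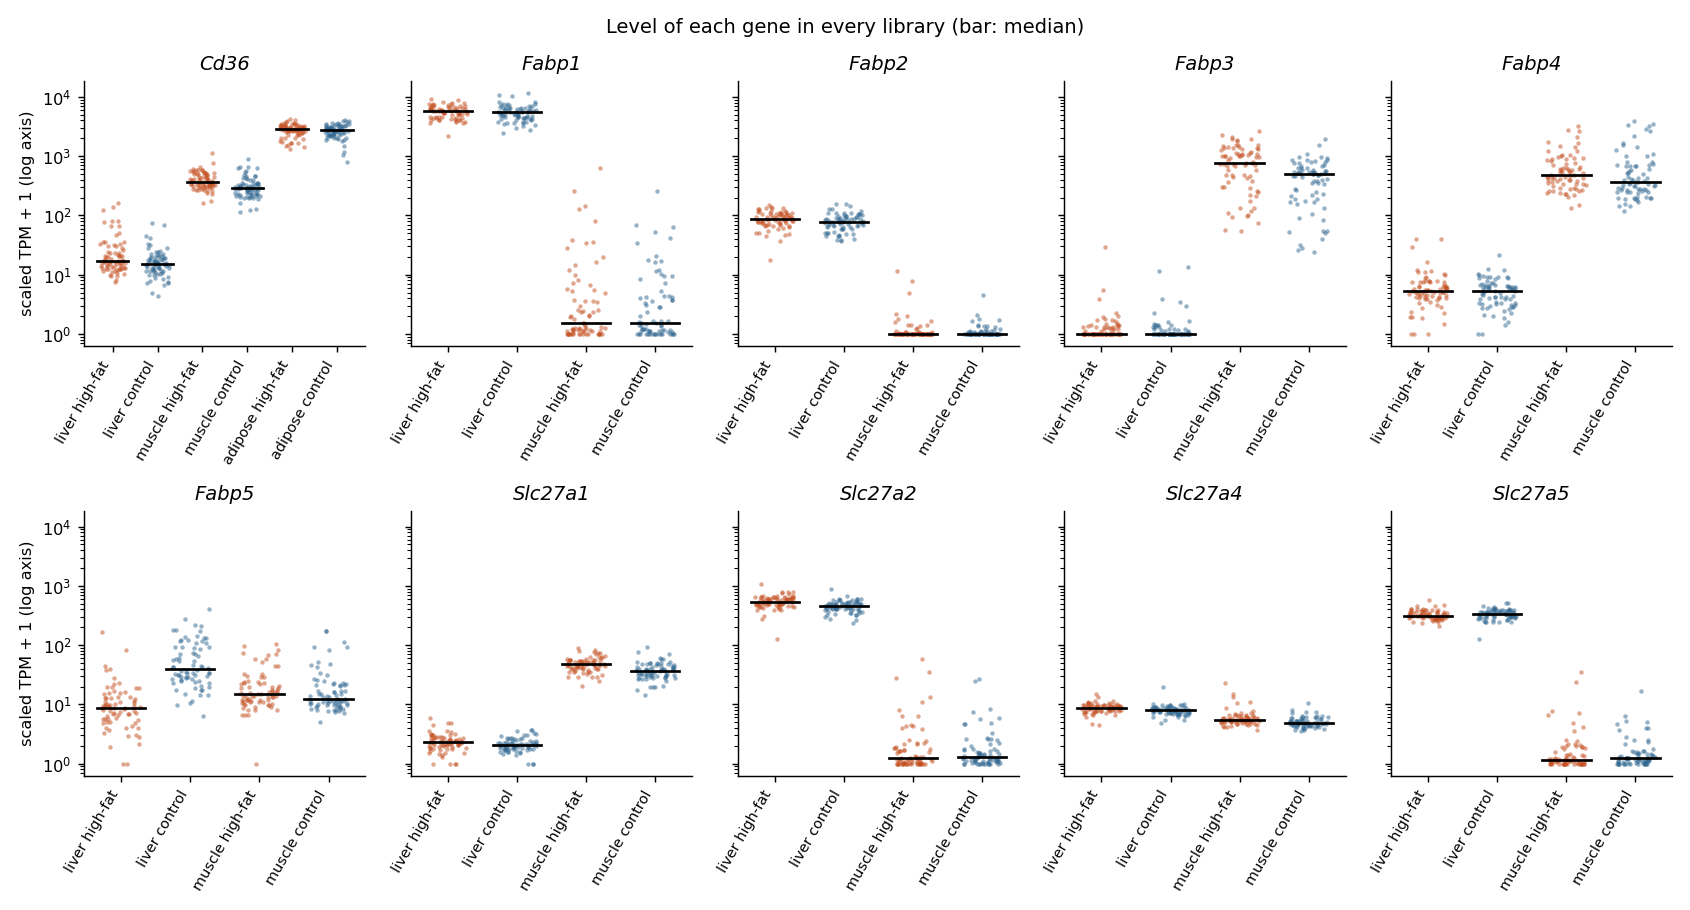
Scaled TPM plus 1 (y axis, logarithmic) of the 10 genes in each library, by tissue and diet. Each point is 1 library and the black bar is the group's median. Fabp5 in liver has a median of 7.85 in high-fat mice and 38.8 in controls, while Cd36 in adipose tissue has medians of 2833 and 2726.

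In liver, high-fat feeding went with less Fabp5 and with more Cd36 and Slc27a2. Of the 10 genes, 9 passed the filter on low values (scaled TPM of 1 or more in a number of libraries equal to 0.7 of the smaller group), and Fabp3 did not. By limma with Benjamini-Hochberg adjustment over all tested genes at 0.05, 2 of the 9 were higher and 1 was lower on the high-fat diet. Over all 12376 tested genes 9.94% passed, 4.57% higher and 5.37% lower. The median log2 difference was 0.13 over the 9 members and -0.0057 over all tested genes.

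Cd36 had a lowest value of 6.46, a median of 16.2 and a highest of 159.3 scaled TPM in high-fat livers, and 3.31, 14.4 and 73.7 in control livers. The groups overlapped over much of their range, and the upper tail was longer on the high-fat diet: the 90th percentile was 60.7 in high-fat livers and 25.9 in control livers. The log2 difference was 0.43 ± 0.14 (SE, n = 74 each, adjusted p = 0.0292 by limma), with 46 of 74 high-fat livers above the control median. The call was lost with no filter (adjusted p = 0.0736) and on TPM as deposited (0.34, adjusted p = 0.9997). The test of its spread between mice gave a log2 difference of 0.16 ± 0.10 (adjusted p = 0.998).

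Slc27a2, the main SLC27 transcript of liver, had 124.8, 542.5 and 1083 scaled TPM (lowest, median, highest) in high-fat livers and 238.7, 453.4 and 889.8 in control livers. The ranges overlapped, and 61 of 74 high-fat livers lay above the control median. The log2 difference was 0.26 ± 0.06 (adjusted p = 0.000691 by limma). With the library labelled liver of mouse 80 kept it was 0.15 (adjusted p = 0.529), and on TPM as deposited 0.16 (adjusted p = 0.9997). Slc27a2 overlaps Gm26697 on the opposite strand, which had a median of 0.371 scaled TPM in liver. Across high-fat livers Slc27a2 went against the summed skeletal muscle markers (r = -0.435, rho = -0.33, adjusted permutation p = 0.0144 and 0.0254). In control livers r was -0.16 and rho -0.11 (adjusted permutation p = 0.287 and 0.507). The part of these markers in its diet difference was not tested.

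Fabp5 had 0, 7.85 and 165.5 scaled TPM in high-fat livers and 5.27, 38.8 and 407.8 in control livers. The ranges overlapped, but 70 of 74 high-fat livers lay below the control median. The gene fell by 2.40 ± 0.20 on the log2 scale (adjusted p = 3.42e-19 by limma). Fabp5 has 5 processed pseudogenes with at least 90% identity over at least 300 bases of its transcript, and the authors' quantification could divide reads among them. With the 5 copies added, the medians were 8.46 in high-fat livers and 41.1 in control livers, and the sum fell by 2.22 ± 0.19 (adjusted p = 4.37e-19). Macrophage markers summed to a median of 104.2 scaled TPM in high-fat livers (47.6 to 294.5) and 127.4 in control livers (57.7 to 383.4). Of the 10 markers, 9 were tested and 2 fell, Ctss by 0.29 ± 0.09 (adjusted p = 0.0222) and Mpeg1 by 0.34 ± 0.12 (adjusted p = 0.0462). Fabp5 did not pass the test of correlation with the summed macrophage markers on either diet, but lay near the threshold in high-fat livers. There r was 0.275 and rho 0.282 (adjusted permutation p = 0.0623 and 0.0677), and r was 0.335 without the 2 farthest mice. In control livers r was 0.115 and rho 0.11 (adjusted permutation p = 0.465 and 0.502). The part of macrophages in the Fabp5 difference was not tested.

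The other 6 tested genes of liver did not pass. Fabp1, the most abundant of the 10, had medians of 5775 scaled TPM in high-fat livers (2194 to 9188) and 5505 in control livers (2420 to 11610), a log2 difference of 0.07 ± 0.06 (adjusted p = 0.63 by limma). The sign turned on TPM as deposited (-0.038), with quantile normalization (-0.070) and with mouse 80 kept (-0.049). Fabp1 went against the summed skeletal muscle markers in high-fat livers (r = -0.34, rho = -0.312, adjusted permutation p = 0.0229 and 0.0376). In control livers r was -0.308 and rho -0.149 (adjusted permutation p = 0.033 and 0.343). Slc27a5, the bile acid-coupling form, had medians of 313.9 in high-fat and 339.9 in control livers (log2 -0.04 ± 0.04, adjusted p = 0.638). Fabp2 had 86.1 in high-fat and 77.5 in control livers (log2 0.15 ± 0.08, adjusted p = 0.277). The 10 enterocyte markers summed to medians of 457.6 scaled TPM in high-fat livers (165.9 to 2465) and 497.6 in control livers (109.1 to 1947). On each diet 5 of the 10 had a median of 0, so the sum is not a measure of enterocytes. Of the 4 that were tested 1 rose, Lgals4 (log2 0.43 ± 0.14, adjusted p = 0.0242), and their part in the Fabp2 value was not tested. The intestinal transcription factor Cdx2 was listed at 0 in 73 of 74 high-fat and 74 of 74 control livers. Vil1, of the same list, was at 0 in 24 high-fat and 22 control livers, with medians of 0.062 and 0.087 scaled TPM. Slc27a4 lay just outside the threshold, with medians of 7.83 in high-fat and 6.90 in control livers and a log2 difference of 0.13 ± 0.04 (adjusted p = 0.0513). It passed in 6 of the 11 alternative settings. Slc27a1 was low in liver, with medians of 1.27 in high-fat and 1.07 in control mice (adjusted p = 0.334), as was Fabp4 with 4.21 in high-fat and 4.23 in control mice (adjusted p = 0.625). Fabp3 was listed at 0 in 42 of 74 high-fat and 49 of 74 control livers. It reached 28.3 scaled TPM in high-fat and 12.5 in control livers, and the part of muscle RNA in these values was not tested.

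In muscle, 4 of the 10 genes were higher on the high-fat diet and none was lower. The filter passed 7 genes, leaving out Fabp2, Slc27a2 and Slc27a5. The 4 that passed the limma test were Cd36, Fabp3, Slc27a1 and Slc27a4 (a receptor, a binding protein and 2 transporters). Over all 13517 tested genes 1.61% passed, 1.03% higher and 0.577% lower. The median log2 difference was 0.22 over the 7 members and -0.0048 over all tested genes.

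Cd36 had 163.8, 365.1 and 1109 scaled TPM (lowest, median, highest) in high-fat muscles and 111.4, 284.7 and 883.9 in control muscles. The ranges overlapped and 63 of 74 high-fat muscles lay above the control median. This was a log2 difference of 0.38 ± 0.08 (adjusted p = 0.00273 by limma). Summed endothelial markers were close on the diets, with medians of 197.8 scaled TPM in high-fat muscles (128.6 to 323.9) and 192.5 in control muscles (137.2 to 318.8), and 0 of 10 markers passed. Summed adipocyte markers had medians of 1811 in high-fat muscles (474.6 to 4439) and 1816 in control muscles (818.2 to 6966), and 1 of 10 passed, Thrsp, which fell by 1.17 ± 0.21 (adjusted p = 4.03e-05). This sum is not specific to fat cells. Its median was 1924 in high-fat and 1925 in control livers, where Adipoq had a median of 0 on both diets. In muscle, Adipoq had medians of 79.5 in high-fat and 51.5 in control mice (adjusted p = 0.614 by limma). Lep was at 1.03 and Cfd at -0.91 on the log2 scale (adjusted p = 0.0615 for each). With both sums as covariates, an alternative chosen after seeing the data, the log2 difference of Cd36 was 0.37 (adjusted p = 8.52e-08). How closely the adipocyte sum followed fat cells was not tested.

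Slc27a1 had 19.2, 46.4 and 88.7 scaled TPM in high-fat muscles and 13.3, 35.8 and 90.6 in control muscles. The highest library was a control, but 60 of 74 high-fat muscles lay above the control median. On the log2 scale the difference was 0.36 ± 0.07 (adjusted p = 0.000522 by limma).

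Slc27a4, a transporter of wide tissue distribution, had 2.63, 4.48 and 22.1 scaled TPM in high-fat muscles and 2.60, 3.83 and 9.65 in control muscles. Again 60 of 74 high-fat muscles were above the control median, within overlapping ranges. High-fat minus control gave a log2 value of 0.21 ± 0.06 (adjusted p = 0.033 by limma). This call was lost on TPM as deposited (0.07, adjusted p = 0.638), without libraries of low scale factor (log2 0.20, adjusted p = 0.0657), without mice whose tissues did not match (0.19, adjusted p = 0.0768), with no filter (0.21, adjusted p = 0.083) and with slow fibre markers as covariate (0.20, adjusted p = 0.0573).

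Fabp3, the muscle form, varied widely between mice of 1 diet. It had 54.4, 778.8 and 2706 scaled TPM in high-fat muscles and 23.3, 490.1 and 1916 in control muscles. Its log2 difference was 0.90 ± 0.23 (adjusted p = 0.0222 by limma), with 48 of 74 high-fat muscles above the control median. The values fell into separate sets by the level of a near-identical gene. Fabp3-ps1 is a processed pseudogene on chromosome 10, and Fabp3 lies on chromosome 4. It matches Fabp3 at 99.3% over 402 bases and differs at 3 of them, A40T, C297T and G334A, with the base of Fabp3 first and positions counted from 1 at the first coding base. The stretches around the 3 differences, from GENCODE M21, show how little separates reads of the 2 genes, with the differing base in capitals.
Fabp3, bases 20 to 60: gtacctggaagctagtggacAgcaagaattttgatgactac
Fabp3-ps1, bases 20 to 60: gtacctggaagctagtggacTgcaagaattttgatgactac
Fabp3, bases 277 to 317: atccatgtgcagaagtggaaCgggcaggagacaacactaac
Fabp3-ps1, bases 277 to 317: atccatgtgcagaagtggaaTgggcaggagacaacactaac
Fabp3, bases 314 to 354: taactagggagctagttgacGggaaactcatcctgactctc
Fabp3-ps1, bases 314 to 354: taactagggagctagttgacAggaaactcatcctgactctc
The annotated transcripts are 823 bases long for Fabp3 and 402 bases for the copy, so the same number of reads gives a higher TPM on the copy.

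Fabp3-ps1 was above 100 scaled TPM in 17 of 74 high-fat and 16 of 74 control muscles, and at or below 9.11 in all others. Where it was high, it ranged from 492.3 to 2972 in high-fat muscles and from 227.1 to 1204 in control muscles. In those libraries Fabp3 had medians of 130.2 scaled TPM in high-fat muscles (54.4 to 422.6) and 53.8 in control muscles (23.3 to 821.7). In the other libraries Fabp3 had medians of 1001 in 57 high-fat muscles (213.3 to 2706) and 513.3 in 58 control muscles (104.6 to 1916). The copy exceeded Fabp3 in all 17 such high-fat libraries and in 15 of the 16 control libraries, and in none of the others. These sets were made from the measured values and were not tested against each other. In the livers of the mice with a high copy in muscle, Fabp3-ps1 reached 2.05 scaled TPM in high-fat mice and 10.9 in controls, with medians of 0.386 and 0.819. In the livers of the other mice it reached 3.125 in high-fat mice and 2.044 in controls, with medians of 0.299 and 0.123. These liver values were not tested.

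With Fabp3 and the copy added, an alternative chosen after seeing the data, the sets came together. The sum had 213.6, 1080 and 3273 scaled TPM in high-fat muscles and 104.6, 539.2 and 1916 in control muscles. Its mean was 1156 ± 580 in high-fat and 575.5 ± 308.2 in control muscles (SD, n = 74 each). Of the 74 high-fat muscles, 65 were above the control median. The log2 difference was 1.01 ± 0.12 (adjusted p = 6.99e-10 by limma), against 0.90 ± 0.23 for Fabp3 alone. Fabp3 alone did not pass with no filter (adjusted p = 0.0566) or with mouse 80 kept (adjusted p = 0.0837). On the opposite strand Fabp3 overlaps Zcchc17, which had a median of 34.5 scaled TPM in muscle, and the use of strand in counting is not given in the sources used here.

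**Figure D3:**
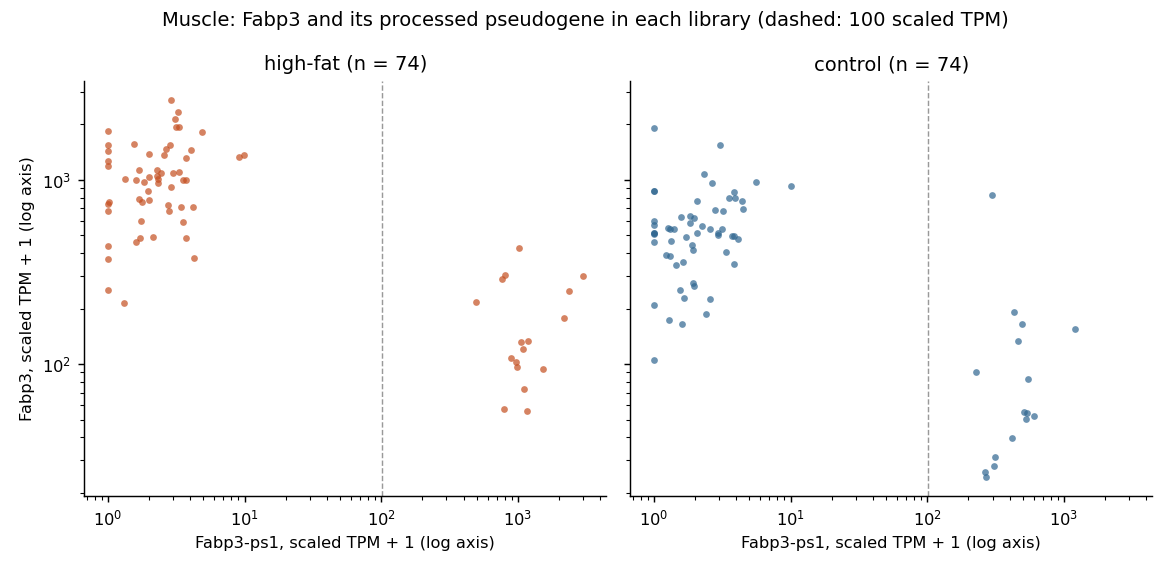
Fabp3 (y axis) against its processed pseudogene Fabp3-ps1 (x axis) in muscle, both as scaled TPM plus 1 on logarithmic axes, with high-fat mice on the left and control mice on the right (n = 74 each). Each point is 1 library and the dashed line is at 100 scaled TPM. The 17 high-fat and 16 control libraries right of the line have most of their Fabp3 values under those of the libraries on the left.

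Slow oxidative fibres make much Fabp3 and Cd36. The sum of their markers had medians of 1338 scaled TPM in high-fat muscles (20.1 to 11210) and 921 in control muscles (32.5 to 12340). The median log2 difference of the 8 markers was 0.67, and 0 of 8 passed the test. With their sum as covariate, an alternative chosen after seeing the data, 2 of the 7 members passed, Cd36 (log2 0.34, adjusted p = 0.0139) and Slc27a1 (0.31, adjusted p = 0.00346). Fabp3 alone did not (0.77, adjusted p = 0.0702), whereas Fabp3 with its copy did (0.87, adjusted p = 3.86e-10). Over all genes 1.09% passed in that fit, against 1.61% without the covariate.

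The other tested genes of muscle did not pass. Fabp4 had medians of 483.6 scaled TPM in high-fat muscles (133.7 to 3170) and 369.3 in control muscles (118.1 to 3923), a log2 difference of 0.22 ± 0.18 (adjusted p = 0.675 by limma). Fabp5 had medians of 14.1 in high-fat and 11.5 in control muscles (log2 0.08 ± 0.18, adjusted p = 0.92), and its sign turned on TPM as deposited (-0.07). Fabp1 had medians of 0.522 in high-fat and 0.529 in control muscles but reached 642.7 in high-fat and 256.4 in control muscles (adjusted p = 0.929). Fabp1 in muscle followed the summed hepatocyte markers across mice, with r = 0.944 and rho = 0.794 in high-fat muscles and r = 0.962 and rho = 0.874 in control muscles (adjusted permutation p = 0.000122 for each), and without the 2 farthest mice r was 0.924 in high-fat and 0.954 in control muscles. The hepatocyte markers reached 6598 scaled TPM in high-fat and 2163 in control muscles, with medians of 6.29 and 8.03. Slc27a2 and Slc27a5, which share the liver with Fabp1, had medians under 0.3 scaled TPM in muscle. Like Fabp1 they were far higher in some libraries. Slc27a2 reached 56.45 in high-fat and 26.06 in control muscles, and Slc27a5 34.4 in high-fat and 15.74 in control muscles. Fabp2 was listed at 0 in 51 of 74 high-fat and 50 of 74 control muscles.

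In adipose tissue, Cd36 did not pass the diet test. It had 1315, 2833 and 4214 scaled TPM (lowest, median, highest) in high-fat mice and 807, 2726 and 4115 in control mice. The ranges nearly coincided. The log2 difference was 0.05 ± 0.06 (SE, n = 75 and 73, adjusted p = 0.538 by limma), in a table where 45.6% of 2226 tested genes passed, 22.9% higher and 22.7% lower. Markers of the cell types moved around it. The 3 adipocyte markers in the table fell, with log2 differences of -1.275 ± 0.16 for Retn (adjusted p = 2.44e-11), -0.73 ± 0.10 for Slc2a4 and -0.44 ± 0.10 for Lipe. Of 4 macrophage markers 3 rose, with Cd68 higher by 1.56 ± 0.17 (adjusted p = 3.63e-13), Adgre1 by 1.18 ± 0.15 and Fcgr1 by 0.56 ± 0.14. The adipocyte markers summed to medians of 1289 scaled TPM in high-fat mice (330.9 to 3924) and 2490 in controls (773.7 to 4854), and the macrophage markers to 281.5 (80.05 to 1070) and 117.8 (60.9 to 633.7). Their part in the Cd36 value was not tested.

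**Figure D4:**
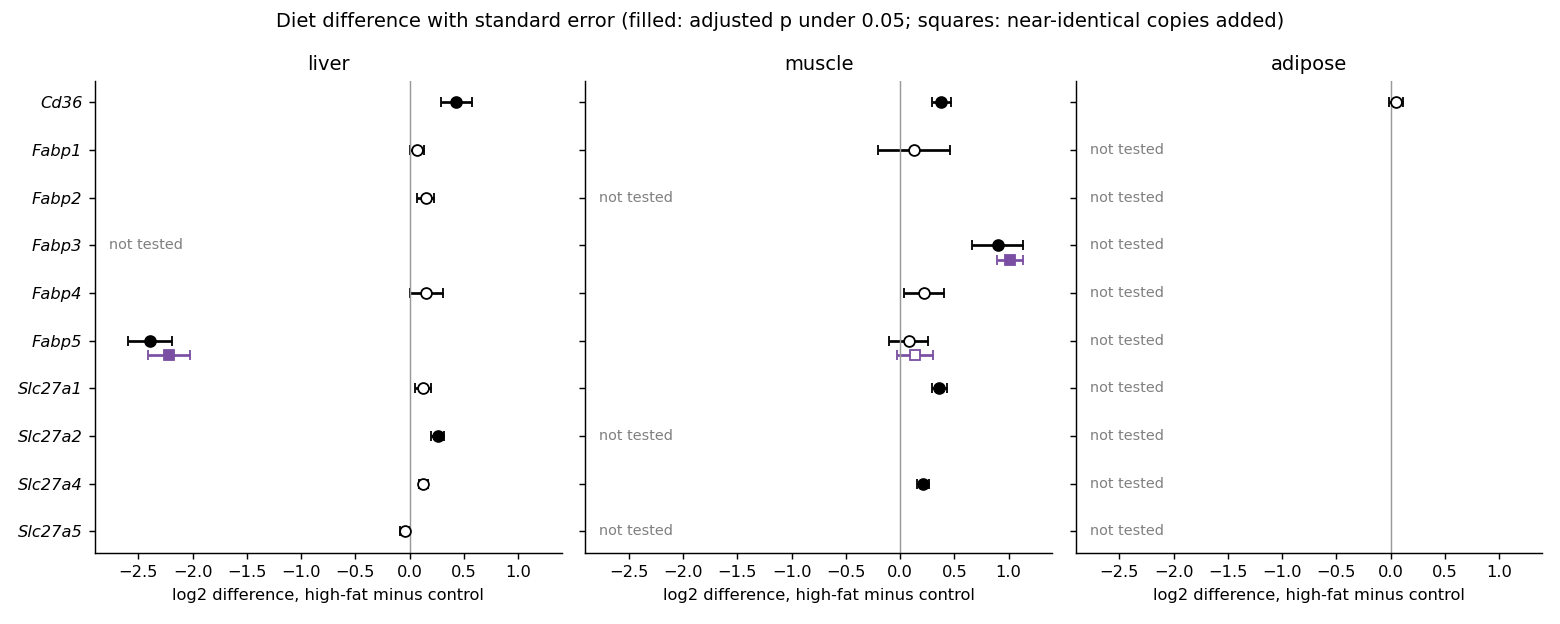
Log2 difference, high-fat minus control, with its standard error (x axis) for each gene (y axis) in liver, muscle and adipose tissue. Filled symbols passed at an adjusted p of 0.05, and squares show Fabp3 and Fabp5 with their near-identical copies added. Fabp5 in liver stands at -2.40, while Cd36, Fabp3, Slc27a1 and Slc27a4 lie to the right of 0 in muscle.

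The diet differences were then compared between tissues with an interaction term. Fabp5 differed between liver and muscle by -2.47 ± 0.27 on the log2 scale (adjusted p = 4.66e-14 by limma), where 3.26% of 10966 genes passed, 1.33% higher and 1.93% lower. The other 5 genes tested in both tissues did not pass. Cd36, which was higher in both tissues, gave 0.05 ± 0.16 (adjusted p = 0.943), and Slc27a1 gave -0.24 ± 0.10 (adjusted p = 0.214). Fabp3 and Slc27a2, each tested in 1 of the 2 tissues, have no such test. The Cd36 difference in muscle exceeded that in adipose tissue by 0.33 ± 0.11 (adjusted p = 0.0136, with 23.7% of 1929 genes passing, 11.9% higher and 11.8% lower), but on TPM as deposited the value was -0.13 (adjusted p = 0.624). Liver against adipose tissue gave 0.38 ± 0.15 for Cd36 (adjusted p = 0.0529, with 25.8% of 1783 genes passing, 11.7% higher and 14.1% lower). These comparisons share libraries with those of the single tissues.

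Within tissues, the diet calls of members other than Fabp5 in liver were lost when no scaling was applied. Over all alternatives, Fabp5 in liver passed in 12 of 12, and Cd36 and Slc27a1 in muscle in 11 of 12 each. On TPM as deposited, 1 of 9 members passed in liver, Fabp5, and 0 of 7 in muscle, where 61 of 12376 and 15 of 13517 genes passed in all. In that setting the log2 differences of muscle were 0.16 for Cd36, 0.68 for Fabp3, 0.15 for Slc27a1 and 0.07 for Slc27a4, and the median over all muscle genes was -0.155. Relative to that median all 4 stayed positive. The share of calls that were higher on the high-fat diet was then 18% in liver, 33.3% in muscle and 94.7% in adipose tissue, against 46%, 64.1% and 50.1% with scaling, and the adipose median moved to 0.205. For the diet differences compared between tissues, the share of calls with a positive difference was 14.3% for liver minus muscle, 1.94% for liver minus adipose tissue and 0.505% for muscle minus adipose tissue, against 40.8%, 45.4% and 50.3% with scaling. Without libraries of low scale factor it was 50.9% for liver minus muscle.

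Genes that act beside the members were followed as lists. Of 17 acyl-CoA synthetases and acyl-CoA binding proteins, which trap and carry fatty acids after uptake, 15 were tested in liver and 2 rose and 4 fell (median log2 0.01). Among those that fell were Acss2, an acetyl-CoA synthetase (log2 -1.205 ± 0.11, adjusted p = 1.52e-16), Acsl5 (log2 -0.55 ± 0.06, adjusted p = 3.38e-14) and Dbi, the acyl-CoA binding protein (log2 -0.36 ± 0.06, adjusted p = 4.06e-06), all by limma. In muscle 1 of 15 rose, Acsl1, the main long-chain synthetase of that tissue (0.31 ± 0.06, adjusted p = 0.00117). Acsl1 also rose in liver (0.31 ± 0.06, adjusted p = 5.98e-05) and in adipose tissue (0.31 ± 0.09, adjusted p = 0.0025), where it was the 1 gene of the list that was tested. The adipose counts of this and the next lists stand against a table in which 45.6% of 2226 genes passed, 22.9% higher and 22.7% lower.

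Of 17 other binding and transport proteins, 10 were tested in liver, where 1 rose and 1 fell. Mfsd2a, a lysophosphatidylcholine transporter, was higher by 1.05 ± 0.19 (adjusted p = 7.59e-06 by limma), and Lpl, the lipase that frees fatty acids from lipoproteins, fell by 0.56 ± 0.13 (adjusted p = 0.000633). None of 9 passed in muscle. In adipose tissue 2 of 5 rose and 3 fell, among them Lpl, by 0.40 ± 0.08 (adjusted p = 5.33e-06), the caveolar protein Cav2, by 0.29 ± 0.07 (adjusted p = 0.000222), and Fabp7, a further FABP, higher by 0.43 ± 0.12 (adjusted p = 0.00251). Of 13 genes for the trafficking and modification of CD36, 0 passed in liver and 1 in muscle, Tbc1d1, which controls the movement of glucose transporter and CD36 vesicles (0.47 ± 0.11, adjusted p = 0.00618). Fyn, a kinase of CD36 signalling, rose in adipose tissue (0.37 ± 0.06, adjusted p = 3.15e-08), where 1 of 4 rose and 1 fell.

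PPAR targets other than the 10 genes formed a further list of 20. Of 19 tested in liver 9 rose and 1 fell (median log2 0.19), with Cpt2 of the mitochondrial carnitine system higher by 0.47 ± 0.05 (adjusted p = 6.19e-15), the liver factor Creb3l3 by 0.39 ± 0.04 (adjusted p = 1.5e-13) and the carnitine carrier Slc25a20 by 0.38 ± 0.05 (adjusted p = 9.99e-10), all by limma. Of 15 tested in muscle 7 rose and none fell (median log2 0.30), with Acot1, an acyl-CoA thioesterase, higher by 1.05 ± 0.13 (adjusted p = 3.14e-09), Acadl of beta-oxidation by 0.49 ± 0.07 (adjusted p = 8.51e-07) and Slc25a20 by 0.34 ± 0.06 (adjusted p = 1.61e-05). In adipose tissue 2 of 3 rose, Pdk4 (0.71 ± 0.15, adjusted p = 4.8e-05) and Angptl4 (0.45 ± 0.10, adjusted p = 8.42e-05). Of 14 nuclear receptors and partners, 4 rose and 2 fell in liver, where Nr1i3 was higher by 0.52 ± 0.11 (adjusted p = 0.000352), Rxra by 0.19 ± 0.04 (adjusted p = 0.000658), and Ppard fell by 0.53 ± 0.11 (adjusted p = 0.00033). None of 9 passed in muscle. In adipose tissue 3 of 5 fell, among them Pparg, the receptor of adipocytes, by 0.48 ± 0.08 (adjusted p = 2.47e-07).

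Mice of 1 diet also differed among themselves, and in muscle several members varied together. On the log2 scale, Pearson's r and Spearman's rho were computed within each diet, each with a permutation p from 100000 draws, adjusted over the 72 relations of liver and the 42 of muscle. A relation was called where both adjusted values were under 0.05 with the same sign, which held for 16 relations in muscle. How often pairs of other genes pass such a test was not computed for either tissue, so these counts are not particular to the members. Among the called relations were those of Fabp1 with Cd36 and with Fabp4 in high-fat muscles, where Fabp1 followed the hepatocyte markers. Cd36 and Fabp4 in muscle gave r = 0.698 and rho = 0.599 in high-fat mice and r = 0.747 and rho = 0.629 in controls (permutation p = 1e-05 for each, the smallest the permutations can give). Without the 2 mice farthest from the median of Cd36, r was 0.633 in high-fat mice and 0.732 in controls. Fabp4 and Fabp5 gave r = 0.619 and rho = 0.643 in high-fat mice and r = 0.877 and rho = 0.80 in controls (permutation p = 1e-05 for each), and r without the 2 farthest mice was 0.56 in high-fat mice and 0.854 in controls. Cd36 and Slc27a1 gave r = 0.431 and rho = 0.442 in high-fat mice (adjusted permutation p = 0.0007 and 0.00042) and r = 0.625 and rho = 0.598 in controls (adjusted permutation p = 6e-05 and 7e-05), and r without the 2 farthest mice was 0.454 in high-fat mice and 0.586 in controls. Of 72 relations in liver, 2 were called: Cd36 with Fabp4 in high-fat mice (r = 0.356, rho = 0.44, adjusted permutation p = 0.0218 and 0.00288) and Fabp1 with Fabp2 in control mice (r = 0.574, rho = 0.56, adjusted permutation p = 0.00072 for each). Without the 2 farthest mice these r values were 0.311 and 0.4998. The difference of these relations between diets was not tested.

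**Figure D5:**
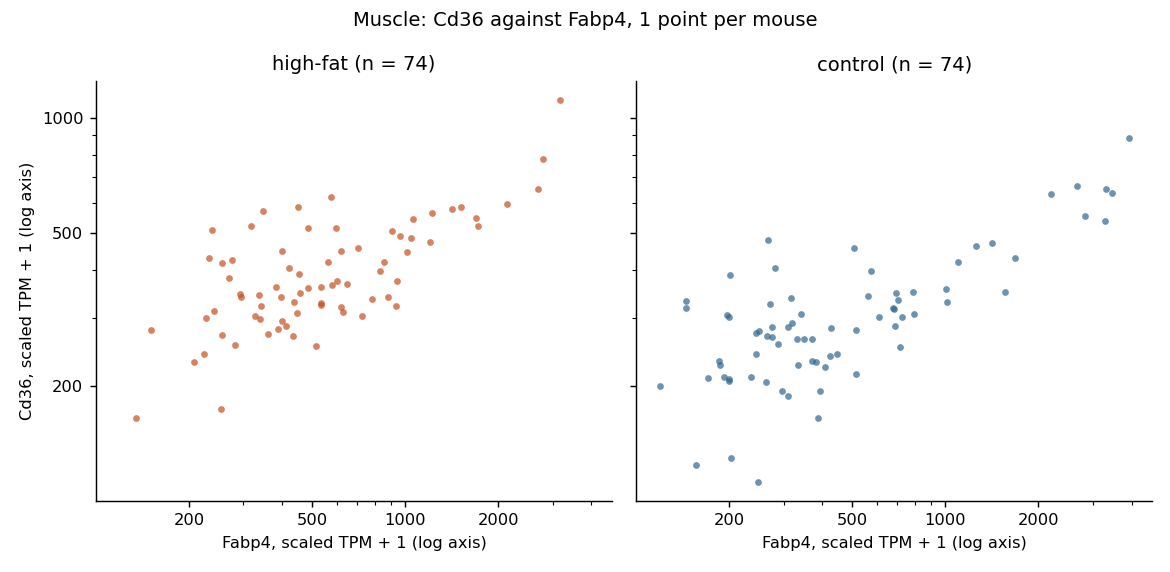
Cd36 (y axis) against Fabp4 (x axis) in muscle, both as scaled TPM plus 1 on logarithmic axes, with high-fat mice on the left and control mice on the right. Each point is 1 mouse (n = 74 each), and r is 0.698 in high-fat mice and 0.747 in controls.

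The same genes followed summed markers of other cell types in muscle, of which the adipocyte sum is not specific to fat cells. Adipocyte markers, of which Adipoq had medians of 79.5 scaled TPM in high-fat muscles (3.41 to 499.2) and 51.5 in control muscles (2.25 to 615.5), went with Fabp4 at r = 0.684 and rho = 0.64 in high-fat mice and r = 0.79 and rho = 0.705 in controls. They went with Cd36 at r = 0.514 and rho = 0.512 in high-fat mice and r = 0.745 and rho = 0.662 in controls. Endothelial markers went with Cd36 at r = 0.634 and rho = 0.613 in high-fat mice and r = 0.77 and rho = 0.727 in controls. The adjusted permutation p of these 6 relations was at most 0.000225, over 36 relations of members with marker sums in liver, 35 in muscle and 2 in adipose tissue for each diet. Without the 2 farthest mice, r ran from 0.468 to 0.762. Fabp4 also went with macrophage markers, at r = 0.674 and rho = 0.646 in high-fat mice (adjusted permutation p = 0.000122 for each; r = 0.641 without the 2 farthest mice) and r = 0.481 and rho = 0.44 in controls (adjusted permutation p = 0.000292 and 0.0012; r = 0.431 without them). With endothelial markers Fabp4 gave r = 0.439 and rho = 0.34 in high-fat mice (adjusted permutation p = 0.00108 and 0.0201; r = 0.35 without them) and r = 0.67 and rho = 0.561 in controls (adjusted permutation p = 0.000122 for each; r = 0.616 without them). Fabp3 with its copy went with the slow fibre markers (r = 0.529 and rho = 0.50 in high-fat mice, r = 0.589 and rho = 0.615 in controls) and with Slc27a1 (r = 0.622 and rho = 0.562 in high-fat mice, r = 0.346 and rho = 0.417 in controls), with an adjusted permutation p of at most 0.00532 over 14 relations. Without the 2 farthest mice, r with the slow fibre markers was 0.492 in high-fat mice and 0.531 in controls, and r with Slc27a1 was 0.586 in high-fat mice but 0.214 in controls. It went against Fabp4 (r = -0.417 and rho = -0.296 in high-fat mice, adjusted permutation p = 0.000672 and 0.0213, and r = -0.418 and rho = -0.36 in controls, adjusted permutation p = 0.00056 and 0.00462), where r without the 2 farthest mice was -0.341 in high-fat mice and -0.483 in controls. The sum of Fabp3 and its copy was chosen after seeing the data. Fabp3 alone gave r = 0.102 and rho = 0.215 with the slow fibre markers in high-fat mice, and r = 0.397 and rho = 0.444 in controls. With Fabp4, Fabp3 alone was called on neither diet (r = -0.181 in high-fat mice and -0.173 in controls).

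Levels of the same member were also compared between tissues, and against adipose tissue only Cd36 could be compared. Of 16 relations between tissues of the same mouse, 1 was called, that of Cd36 between liver and muscle in high-fat mice (r = 0.422, rho = 0.347, adjusted permutation p = 0.00464 and 0.04, n = 74). Without the 2 mice farthest from the median in liver, r was 0.305. In control mice r was 0.138 and rho 0.139 (adjusted permutation p = 0.623 and 0.594), and the difference between diets was not tested. The relation was no longer called with mouse 80 kept (rho = 0.294, adjusted permutation p = 0.483) or on TPM as deposited (rho = 0.26, adjusted permutation p = 0.618). Fabp1 between liver and muscle in control mice gave r = 0.33 and rho = 0.277 (adjusted permutation p = 0.0336 and 0.133) and was not called. The share of other genes with a called relation between tissues was not computed.

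The spread between mice was compared by diet for members averaging 5 or more scaled TPM, by limma on absolute deviations. None of 8 members passed in liver, where 0.0269% of 7427 genes did, and none of 6 in muscle, where 0.0348% of 8617 genes did. None of these members had an unadjusted p under 0.05.

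For each member that passed the diet test, the 3 genes most alike across mice were found by the mean of the 2 within-diet rho values among 8618 genes in muscle and 7428 in liver. Cd36 in muscle was most like Lpl (mean rho 0.839), Acsl1 (0.769) and Ephx2 (0.745). Slc27a1 was most like Acaa2 (0.68), Plin5 (0.661) and Ech1 (0.645), and Slc27a4 like Fam129b (0.497), Elovl5 (0.449) and Rtn3 (0.44). Fabp3 without its copy was most like Slc25a34 (0.549), Mb (0.506) and Etfdh (0.495). In liver, Cd36 was most like Cyp2c38 (0.534), Rtn4 (0.516) and Acadm (0.491), Slc27a2 like Cpt1a (0.567) and Eci2 (0.521) among its 3, and Fabp5 like Fam3c (0.471), Serpina4-ps1 (0.435) and Fgb (0.43). Likeness here is a description over 74 mice per diet that share tissue and library composition.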

How the data were processed

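Libraries were made from total RNA with a stranded kit and read on MiSeq, per the labels' protocols. Adapter trimming with Trim Galore 0.4.4 and alignment tool Bowtie 1.2.2 stand in the submitters' processing notes. The quantifier, genome build and use of strand are not given. What the authors deposited is TPM: every liver and muscle column sums to 1000000, and the adipose table holds fewer genes. The fits used limma 3.58.1 in R 4.3.3 on log2(scaled TPM + 1), two-sided, with Benjamini-Hochberg adjustment at 0.05, and no count test. Scaling took a trimmed mean of log ratios over nuclear protein-coding genes without Lars2. Symbols came from GENCODE M21, and near-identical copies from blastn 2.17.0. Groups follow the labels, and 7 high-fat and 4 control livers with a second number in the label were kept. Same-numbered samples were taken as 1 mouse, per the study's design. Liver and muscle matched both ways except in 6 high-fat and 3 control mice, mouse 80 included. Liver and adipose tissue, and muscle and adipose tissue, each matched both ways in 89 of 148 mice. The 150 genes used were those that agreed best between same-numbered libraries. That choice favours such matches, so these counts do not test the pairing. Over 5370 genes not chosen that way, the median r between liver and muscle libraries was 0.186 for the same number and -0.0026 for other numbers. For adipose tissue the same-number value was 0.0738 with liver and 0.123 with muscle. Members, lists and tests were chosen with earlier results of these data known. Named genes were all members, up to 3 genes of each list per tissue with the smallest p, and 3 look-alike genes per called member, of which 1 is not reported here. Alternatives changed scaling, pseudocount (0.1 and 5), filter, libraries, mice, limma options and block. Summed copies and marker covariates were added after seeing the data. The fit was tested on simulated data.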

Additional observations from a re-analysis of the deposited data

Results flagged for a closer look

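The diet difference of Fabp5 was not the same in liver and muscle. In liver the gene had medians of 7.85 scaled TPM in high-fat mice and 38.8 in controls, while in muscle the medians were 14.1 and 11.5. The interaction was -2.47 on the log2 scale (SE 0.27, adjusted p = 4.66e-14 by limma), and it lay between -2.74 and -2.26 in the 4 alternatives. Cd36 differed between muscle and adipose tissue by 0.33 on the log2 scale (SE 0.11, adjusted p = 0.0136 by limma), with medians of 365.1 in high-fat and 284.7 in control muscles and of 2833 in high-fat and 2726 in control adipose samples. That difference was -0.13 on TPM as deposited.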

How the results depend on the processing

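On TPM as deposited, the percentage of tested genes past the threshold was 0.493 in liver against 9.94 with scaling, 0.111 against 1.61 in muscle and 14.3 against 45.6 in adipose tissue. For diet differences between tissues it was 0.0638 against 3.26 for liver minus muscle and 5.78 against 25.8 for liver minus adipose tissue. Members past it were 1 in liver, 0 in muscle and 0 for muscle minus adipose tissue. In that setting the log2 value was -0.038 for Fabp1 in liver and -0.071 for Fabp5 in muscle. For liver minus muscle it was 0.013 for Slc27a4 and 0.13 for Fabp4, and for muscle minus adipose tissue -0.13 for Cd36, none past the threshold. Called relations of members numbered 72 in liver against 2, 26 in muscle against 16, and 0 between tissues against 1. Fabp1 in liver was -0.070 with quantile normalization. With mouse 80 kept, Fabp1 in liver was -0.049, Fabp4 for liver minus muscle 0.090, 1.04% of genes passed in muscle, 1 member passed for liver minus adipose tissue, the muscle spread test called 0.0116% of genes against 0.0348%, and 0 relations between tissues were called. Without libraries of low factor, 15.75% of genes passed in liver, 5.77% and Fabp1 at 0.080 for liver minus muscle, 1 member for liver minus adipose tissue, and 1 relation was called in liver. With no filter, 0.313% of genes and 2 members passed in muscle, and with the slow fibre covariate 2 members. At pseudocount 5 the liver spread test called 0.0539% of genes against 0.0269%. The cause was not tested.

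With the mouse as replicate block, Fabp5 for liver minus muscle was -2.47 (adjusted p = 1.36e-12 by limma) and Cd36 for muscle minus adipose tissue 0.34 (adjusted p = 0.0136), and no call of a member changed. Over the settings chosen at the start, this one included, 200 values of members kept direction and side of the threshold, 13 lost the call, 8 gained it and 9 turned sign. Depth is unknown, so low members such as Fabp3 in liver cannot be told from 0 at a stated limit.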
